A study of Mus musculus with 32 samples.

Results

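The 37 genes of the mouse mitochondrial genome were followed across 32 RNA-seq libraries from sorted bone marrow progenitors. They were taken as every gene whose name starts with mt-, which gave 37 of the 55487 genes in the deposited table. Of these, 13 code for proteins, 2 for rRNAs and 22 for tRNAs, and all lie on chromosome M of GRCm38. The mice were 4 Cxadr-ko animals (Mx1-Cre+ Cxadrfl/fl), set against 4 control animals (Mx1-Cre- Cxadrfl/fl). Both genotypes therefore carried the floxed alleles of Cxadr, the coxsackievirus and adenovirus receptor gene, and only Cxadr-ko mice carried the recombinase. From each of the 8 mice the LSK, CMP, GMP and MEP gates were sorted, names in common use for stem and multipotent progenitors (LSK), common myeloid progenitors (CMP), granulocyte-monocyte progenitors (GMP) and megakaryocyte-erythroid progenitors (MEP). The Mx1 promoter answers to interferon and is active in many cell types, and the labels state neither an inducing agent, nor a time after it, nor an age of the mice. The presence of the recombinase and the loss of Cxadr cannot be told apart in this design.

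Mitochondria keep a small circular genome whose products serve oxidative phosphorylation. Its protein-coding genes encode subunits of complex I (mt-Nd1 to mt-Nd6 and mt-Nd4l), cytochrome b of complex III (mt-Cytb), the catalytic core of complex IV (mt-Co1 to mt-Co3) and subunits of ATP synthase (mt-Atp6 and mt-Atp8). The rRNAs mt-Rnr1 and mt-Rnr2 build the small and the large mitochondrial ribosomal subunit, and the tRNAs read the codons of the organelle's own code. Both DNA strands are transcribed as long precursors, which are cut mainly at the tRNAs that lie between the other genes, and the mRNAs and rRNAs then receive short A tails. Blood stem cells are known for low reliance on respiration, and more committed progenitors for a greater one.

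Chromosome 1 holds a near-identical nuclear copy of part of the mitochondrial genome, and the deposited counts place many reads on it. Whether those reads came from the mitochondrion or the copy was not tested. The copy is annotated as 7 pseudogenes on the minus strand between 24611535 and 24616197 of chromosome 1 (GRCm38). Each of them was aligned to the gene it copies, and the annotated copies of mt-Co2, mt-Atp6 and mt-Co3 (Gm28661, Gm10925 and Gm28437) had 0 differences over 681, 678 and 783 bases. The first 60 bases of mt-Co2 and Gm28661, from the GENCODE transcripts of GRCm38, show what a read would have to be placed by, with no base in capitals since none differs.
mt-Co2 (chrM:7013-7072, plus strand): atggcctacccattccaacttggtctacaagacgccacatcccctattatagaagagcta
Gm28661 (chr1:24615506-24615565, minus strand): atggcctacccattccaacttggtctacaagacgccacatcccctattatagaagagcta

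The copy of mt-Nd3, Gm28438, differed at 1 of 345 bases, T3C, counted from 1 at the 5′ end of the gene with the mitochondrial base first. The copy of the last 492 bases of mt-Co1, Gm29216, differed at 6 positions, all near its start (T1056A, C1057T, A1059G, A1060G, C1062A and A1066T). These pairs are shown because they are the ones in which letters could separate gene from copy, and the capitals mark the bases that differ.
mt-Nd3 (chrM:9459-9518, plus strand): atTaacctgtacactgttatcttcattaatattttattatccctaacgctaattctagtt
Gm28438 (chr1:24613060-24613119, minus strand): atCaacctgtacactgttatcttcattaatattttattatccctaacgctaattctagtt
mt-Co1 (chrM:6381-6440, plus strand): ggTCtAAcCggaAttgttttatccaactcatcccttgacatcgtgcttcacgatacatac
Gm29216 (chr1:24616138-24616197, minus strand): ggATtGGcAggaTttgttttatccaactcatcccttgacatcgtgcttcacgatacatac

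A second limit is strand. Genes on opposite strands overlap or lie end to end in this genome, and no label or header says that the counting used strand. The ends of mt-Nd5 and mt-Nd6 share 14 bases in opposite sense, marked in capitals, and mt-Tt and mt-Tp are adjacent tRNA genes on opposite strands whose levels lay far apart. Reads of mt-Nd6 and of the 8 tRNA genes coded on the light strand therefore cannot be told apart from antisense reads of the other strand's precursor.
mt-Nd5 (chrM:13529-13565, plus strand): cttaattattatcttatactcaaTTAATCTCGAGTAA
mt-Nd6 (chrM:13552-13588, minus strand): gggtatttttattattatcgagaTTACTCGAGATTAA
mt-Tt (chrM:15289-15355, plus strand): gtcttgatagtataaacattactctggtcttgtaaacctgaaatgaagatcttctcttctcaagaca
mt-Tp (chrM:15356-15422, minus strand): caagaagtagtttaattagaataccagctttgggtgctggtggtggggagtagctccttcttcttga

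The libraries held 8313300 to 13641248 reads on genes. The values are counts divided by a size factor per library, called normalized counts here. Cxadr itself averaged 30.5 ± 18.1 normalized counts in Cxadr-ko and 28.7 ± 14.7 in control LSK (SD, n = 4 each), and 6.10 ± 6.73 in Cxadr-ko and 12.9 ± 9.97 in control MEP, with overlapping ranges in all 4 gates, so its level does not separate the genotypes. Of the marker lists, the GMP granule genes summed to 265484 to 331249 in Cxadr-ko and 237844 to 381237 in control GMP, above every LSK library (13363 to 23413). Stem and progenitor genes summed to 15121 to 18643 in Cxadr-ko and 18145 to 19972 in control LSK, above every GMP library (3310 to 4800). By its sum the erythroid list did not mark the MEP gate, with 947 to 1623 in Cxadr-ko MEP and 1117 to 1540 in control MEP. Its CMP sums were 1147 to 1829 in Cxadr-ko and 1168 to 1592 in control mice. Its members went both ways. Over both genotypes Tfrc, its highest gene, averaged 827 ± 250 in MEP and 998 ± 234 in CMP (SD). Gata1 averaged 259 ± 72.2 in MEP, against 189 ± 54.7 in CMP, 167 ± 75.0 in GMP and 65.7 ± 22.4 in LSK. Klf1 averaged 114 ± 52.4 in MEP, against 57.4 ± 25.9 in CMP and 118 ± 65.5 in GMP. Car1 and Ermap, at 0 in Cxadr-ko MEP, averaged at most 8.52 in any gate (Car1 in GMP). The CMP and early myeloid list summed to 56770 to 79408 in Cxadr-ko and 60109 to 76540 in control CMP, below every GMP library (137476 to 227603). The megakaryocyte list summed to 652 to 932 in Cxadr-ko and 795 to 1076 in control MEP, below every LSK library (2185 to 3423). By their sums these lists did not mark CMP and MEP either. Members differed in direction, such as Cd34 (mean 10004 in CMP, 6197 in GMP) and Itga2b (416 in MEP, 264 in LSK). Immunoglobulin genes took 0.0273% to 12.5% of a library's reads, the highest share being that of LSK control mouse 1. In bulk libraries fewer cells of a type and less RNA per cell cannot be told apart.

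By the reads placed on chromosome M, mt-Cytb stood first among the mitochondrial genes, with a mean of 86406 normalized counts per kilobase over the 32 libraries. mt-Rnr2 followed with 28138. Gm10925, the chromosome 1 copy of mt-Atp6, averaged 163515, and which gene its reads came from was not tested. The complex I genes covered a wide range, from 662 for mt-Nd3 through 4791 for mt-Nd6, 5196 for mt-Nd5, 5704 for mt-Nd4l, 5742 for mt-Nd2 and 9900 for mt-Nd4 to 16318 normalized counts per kilobase for mt-Nd1. The complex IV gene mt-Co1 averaged 17425, and mt-Rnr1 averaged 10125. Among the tRNAs, mt-Tp was highest with 3344 normalized counts per kilobase, and its neighbour mt-Tt, printed above, averaged 114. The tRNAs mt-Te, mt-Tn, mt-Tc, mt-Tq, mt-Ta, mt-Tm and mt-Tl1 averaged 207 to 780. The tRNA genes span only 59 to 75 bases. Whether their reads came from mature tRNAs or from uncut precursors was not tested, here and in all tRNA values below.

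Other genes were almost empty. mt-Co2 and the tRNAs mt-Ty, mt-Ts1, mt-Td, mt-Tk and mt-Tg had 0 reads in all 32 libraries. Taken alone, a library at 0 allows up to 3 reads from counting error, a limit that does not cover reads placed on a copy. The ATP synthase genes mt-Atp6 and mt-Atp8 had 1 read each and mt-Co3 had 6 reads over all libraries together. The remaining 8 tRNA genes had 11 (mt-Ts2) to 105 (mt-Ti) reads over all libraries and passed no filter on low values. Among the mRNAs of this kind, mt-Co2, mt-Atp6 and mt-Co3 have a copy whose row is well filled, while mt-Atp8 has none annotated: Gm10925, the copy of mt-Atp6, averaged 163515 normalized counts per kilobase, Gm28437, the copy of mt-Co3, 45611, and Gm28661, the copy of mt-Co2, 34383. Gm29216 held 1.04 to 1.27 reads for each read of mt-Co1, and Gm28438 held 0.489 to 0.929 for each read of mt-Nd3. The levels of mt-Co1, mt-Nd3, mt-Co2, mt-Atp6 and mt-Co3 are therefore uncertain. So are those of mt-Atp8, mt-Tk, mt-Tg, mt-Td and mt-Ts1, which lie between mitochondrial genes whose copies are neighbours in the same order on chromosome 1. The stretches between the annotated copies were not compared with them. In contrast Gm10222 and Gm28439, which match mt-Nd4l and part of mt-Nd4 without a difference, had 6 and 13 reads in all. Annotated transcripts other than these copies also shared sequence, compared in stretches of 50 bases. Gm13340 shared 27.5% of those of mt-Co1, Gm13341 35.3% of those of mt-Co2 and Gm13339 8.19% of those of mt-Nd2. Gm11407 and Gm4076 shared 3.61% and 4.11% of those of mt-Nd5, and Gm20594 1.04% of those of mt-Rnr2. Whether reads of these genes were placed on those transcripts was not tested. The levels of mt-Nd2, mt-Nd5 and mt-Rnr2 carry this limit too.

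**Figure D1:**
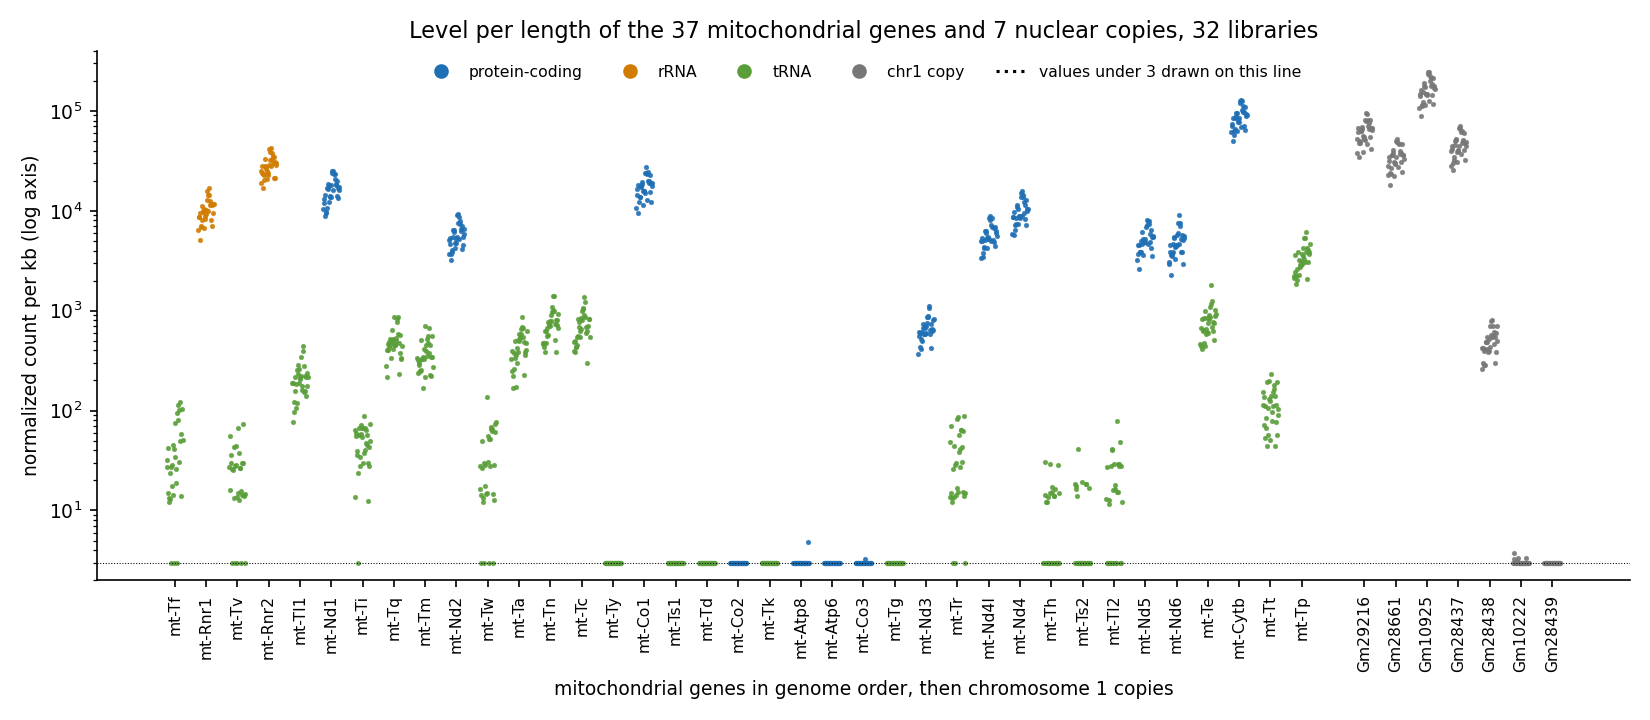
Level per length of each of the 37 mitochondrial genes in genome order, and of the 7 copies on chromosome 1. Each point is 1 of 32 libraries, in normalized counts per kilobase on a log axis, with values under 3 drawn on the dotted line. mt-Cytb is the highest mitochondrial gene by reads placed on chromosome M, and mt-Co2 is on the dotted line in every library. The copies of mt-Atp6, mt-Co3 and mt-Co2 lie in the range of the highest genes, that of mt-Atp6 with a mean of 163515, above the 86406 of mt-Cytb.

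Reads on the 37 genes made up 1.17% to 3.15% of a library (median 2.20%), and 2.15% to 5.97% (median 4.12%) with the chromosome 1 copies added. Among reads on mitochondrial protein-coding genes, mt-Cytb took 51.7% to 59.9% (median 56.8%) and mt-Co1 13.7% to 16.9% (median 15.5%). Reads on the chromosome 1 copies are left out of the mRNA reads here and below. The copies held 1.08 to 1.22 reads for each of these mRNA reads, so the share of mt-Cytb would be smaller with them added. mt-Nd1 took a median of 8.91%, mt-Nd4 7.80%, mt-Nd5 5.43%, mt-Nd2 3.34%, mt-Nd6 1.42%, mt-Nd4l 0.989% and mt-Nd3 0.131%. The rRNA genes held 0.260 to 0.372 reads for each mRNA read, and mt-Rnr2 4.07 to 5.60 reads for each read of mt-Rnr1.

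The first comparison asked in which gate mitochondrial transcripts were most abundant. They were highest in GMP and lowest in LSK. CMP and MEP lay between and were not separated from each other beyond their spread. Each of the 9 protein-coding genes with enough reads to test was called higher in GMP than in the mean of the 3 remaining gates, as were both rRNAs and 8 of 9 tested tRNAs. Of all 18475 genes tested 17.8% were called higher in GMP, so that a call alone does not set the mitochondrial genes apart. The same held in reverse for LSK, where 9 of 9 mRNAs, 2 of 2 rRNAs and 7 of 9 tRNAs were lower, with 20.9% of all genes called lower. The 17 genes that were not tested had too few reads. The direction for mt-Cytb depended on the normalization: it was higher in GMP under the deposited, TMM and read-total scalings and lower in GMP (log2 -0.25) under quantile normalization. Quantile normalization is not a scaling, since it gives every library the same set of values, placed by rank. Mpo averaged above mt-Cytb in GMP (165712 and 124024) and below it in LSK (10529 and 75287). The part of such shifts of rank was not tested.

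mt-Nd1 (ENSMUSG00000064341, chrM:2751-3707) codes for a membrane-arm subunit of complex I. In GMP it had 17172, 23907, 23039 and 23909 normalized counts in Cxadr-ko mice 1 to 4 and 15346, 22573, 22426 and 20131 in control mice 1 to 4. In LSK it had 9997, 11407, 12465 and 13611 in Cxadr-ko mice and 8451, 9184, 9284 and 10200 in control mice. Every GMP library was above every LSK library, in either genotype. In CMP the values were 16071, 15882, 17807 and 16884 in Cxadr-ko mice and 11774, 13449, 13194 and 13150 in control mice. In MEP they were 17559, 17202, 13595 and 18980 in Cxadr-ko mice and 12799, 16199, 15385 and 16685 in control mice. GMP was the highest gate in 7 of 8 mice, the exception being Cxadr-ko mouse 1, whose MEP library was slightly higher, and LSK was the lowest in 8 of 8. Over the 8 mice mt-Nd1 averaged 21063 ± 3228 normalized counts in GMP, against 10575 ± 1775 in LSK, 14776 ± 2153 in CMP and, in MEP, 16050 ± 2058 (SD over 8 mice). With mouse as a block, mt-Nd1 was higher in GMP than in the mean of the other gates by a log2 difference of 0.63 ± 0.055 (SE), with a Benjamini-Hochberg adjusted p of 6.3e-10 by limma. LSK was below the mean of the other gates, with a log2 difference of -0.70 (limma adjusted p = 6.4e-11), and GMP exceeded LSK by 0.99 ± 0.068 (limma adjusted p = 2.3e-12).

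mt-Cytb (ENSMUSG00000064370, chrM:14145-15288) had 97995, 145324, 135900 and 146485 normalized counts in GMP of Cxadr-ko mice 1 to 4 and 79170, 116501, 142582 and 128233 in GMP of control mice 1 to 4. In LSK it had 70043, 80261, 84369 and 96115 in Cxadr-ko mice and 57604, 66212, 72008 and 75681 in control mice. Within every mouse GMP was above LSK, although the lowest GMP library (control mouse 1) was within the range of the LSK libraries. mt-Cytb averaged 124024 ± 24516 in GMP, against 75287 ± 11799 in LSK, 94368 ± 12434 in CMP and, in MEP, 101714 ± 16626 (SD over 8 mice). The log2 difference of GMP from the mean of the other gates was 0.45 ± 0.055 (limma adjusted p = 2e-07), and that of GMP from LSK was 0.71 ± 0.068 (limma adjusted p = 1.5e-09). Under quantile normalization these became -0.25 and -0.02.

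**Figure D2:**
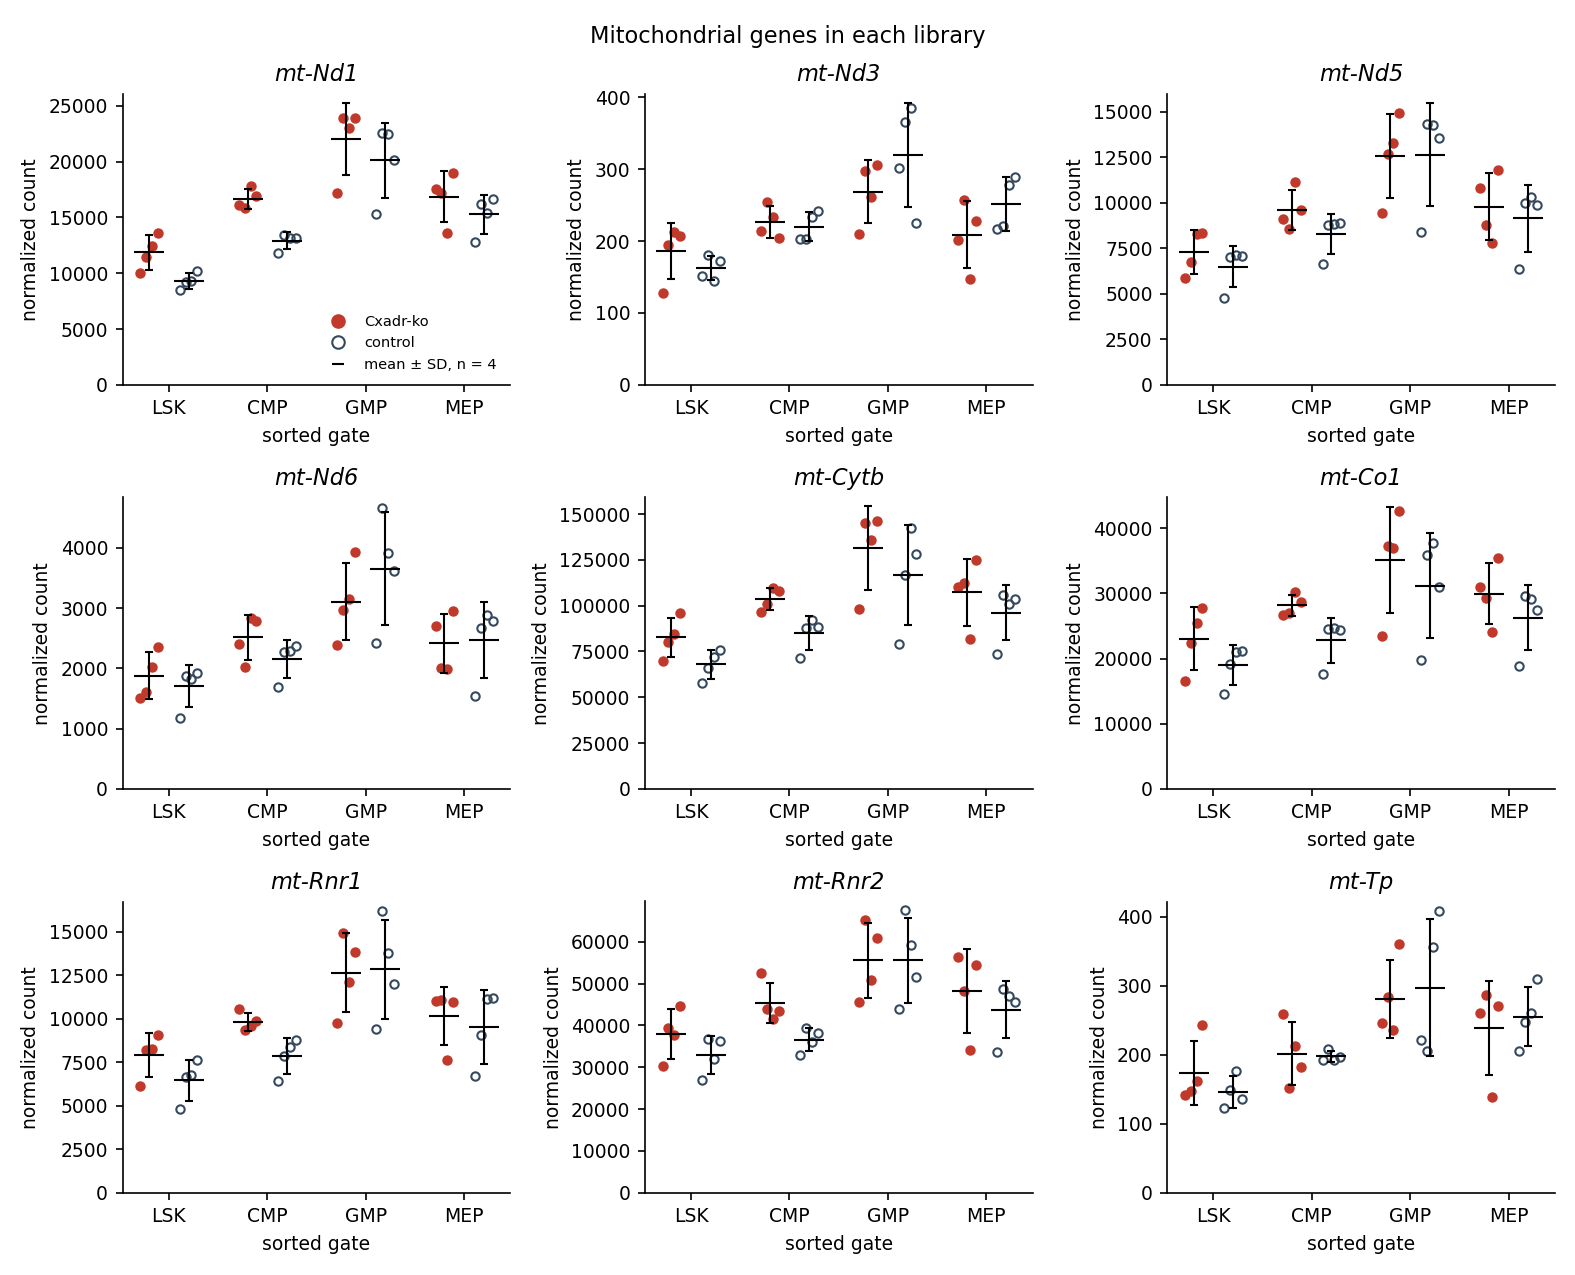
Normalized counts of 6 mitochondrial mRNAs, both rRNAs and mt-Tp in each library, by sorted gate, with Cxadr-ko (filled) to the left of control (open) and the mean ± SD of 4 mice. The GMP points stand above the LSK points of the same gene in most libraries, and in CMP the Cxadr-ko points of mt-Nd1, mt-Cytb, mt-Co1 and both rRNAs lie above all control points. For mt-Cytb the GMP direction turns round under quantile normalization, which is not plotted.

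The other complex I genes were called higher in GMP as well. mt-Nd6, the only mRNA coded on the light strand, averaged 3381 normalized counts in GMP, against 1789 in LSK, 2333 in CMP and 2442 in MEP, and was higher in GMP than in the other gates by 0.63 ± 0.071 on the log2 scale (limma adjusted p = 5.8e-08). mt-Nd5 averaged 12602 in GMP, against 6897 in LSK, 8949 in CMP and 9465 in MEP (log2 difference of GMP 0.58, limma adjusted p = 1.1e-08). mt-Nd2 and mt-Nd4 were higher in GMP by 0.56 and 0.52, mt-Nd4l by 0.49 and mt-Nd3, whose reads are shared with its copy, by 0.49, all with limma adjusted p under the 0.05 threshold. For mt-Nd4l GMP was the highest gate in 8 of 8 mice and for mt-Nd3 in 6. mt-Co1, the catalytic subunit of complex IV, had the smallest of the mRNA differences, 0.41 ± 0.063 (limma adjusted p = 8.6e-06), with 33122 in GMP, against 21001 in LSK, 25468 in CMP and 28097 in MEP.

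Both rRNAs were higher in GMP too. mt-Rnr1 averaged 12753 ± 2388 normalized counts in GMP, against 7198 ± 1367 in LSK, 8862 ± 1289 in CMP and 9863 ± 1798 in MEP, a log2 difference of GMP from the rest of 0.57 ± 0.073 (limma adjusted p = 4.1e-07). mt-Rnr2 averaged 55575 ± 8894 in GMP, against 35485 ± 5595 in LSK, 40993 ± 5938 in CMP and 46005 ± 8365 in MEP (0.45 ± 0.068, limma adjusted p = 5.6e-06). Medians of the log2 difference of GMP were 0.52 for the mRNAs, 0.51 for the rRNAs and 0.58 for the tested tRNAs, and -0.03 for all genes tested. In LSK the medians were -0.51, -0.47 and -0.60, against 0.05 over all genes.

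The tRNAs had the widest range. mt-Tc, the cysteine tRNA on the light strand, had 64.9, 53.3, 69.2 and 69.4 normalized counts in GMP of Cxadr-ko mice and 60.3, 90.6, 80.1 and 56.7 in GMP of control mice. In LSK it had 26.2, 31.7, 32.5 and 25.7 in Cxadr-ko mice and 28.8, 28.7, 30.1 and 36.3 in control mice, so no GMP library of mt-Tc overlapped an LSK library. GMP exceeded LSK by a log2 difference of 1.14 for mt-Tc, 1.12 for mt-Ta and 1.08 for mt-Tn. Against the mean of the other gates GMP was higher by 0.81 for mt-Ta and mt-Tc, 0.77 for mt-Tn, 0.60 for mt-Te, 0.58 for mt-Tq, 0.55 for mt-Tm, 0.54 for mt-Tl1 and 0.52 for mt-Tp, each called by limma. mt-Tt, at 2.94 to 15.4 normalized counts, had 0.45 and was not called (limma adjusted p = 0.16). In LSK, mt-Tq and mt-Tt were not called (log2 -0.38 and -0.19, limma adjusted p = 0.058 and 0.57). These are genes of few reads: the call of mt-Tl1 in GMP was lost without any of 4 mice (control 2, 3 and 4 and Cxadr-ko 2, log2 0.46 to 0.53), its call in LSK without Cxadr-ko mouse 3 (-0.51), and that of mt-Tm in LSK without any of 3 (control 2 and 3 and Cxadr-ko 1, -0.36 to -0.38).

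**Figure D3:**
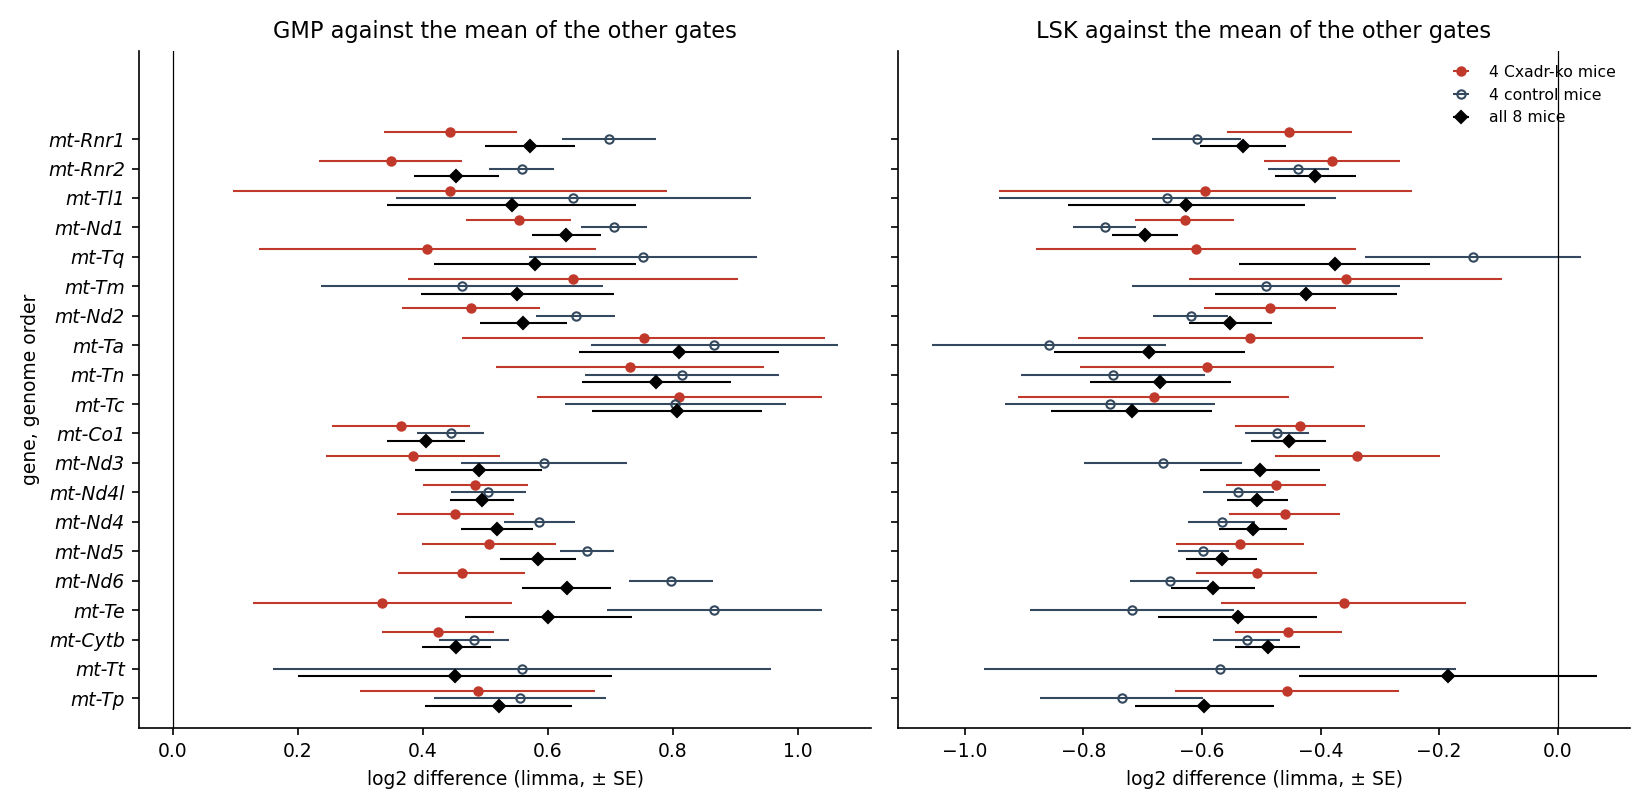
Log2 differences ± SE (limma) of the 20 tested mitochondrial genes in GMP (left) and LSK (right) against the mean of the other gates, in the 4 Cxadr-ko mice, the 4 control mice and all 8. A gene too low to test in the 4 Cxadr-ko mice alone has no point for them. All points drawn for GMP are to the right of 0 and all for LSK to the left, at the deposited scaling. The GMP value of mt-Cytb turns negative under quantile normalization.

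Pairs of gates gave the order. GMP was above LSK for 19 of 20 tested mitochondrial genes, with 22.1% of all genes called higher. It was above CMP for 17 (9.6% of all genes called higher) and above MEP for 15 (10.3% called higher), mt-Cytb reversing in each of these under quantile normalization. MEP was above LSK for 16 genes, with 16.2% of all genes called higher. CMP was above LSK for 12 genes, with 14.9% of all genes called higher, mt-Rnr2 missing the threshold at a log2 difference of 0.21 (limma adjusted p = 0.055). MEP and CMP are the neighbours that were not separated: 0 of 20 genes were called, where 0.373% of all genes were. There mt-Nd1 had a log2 difference of MEP from CMP of 0.12 and mt-Cytb of 0.10 ± 0.068 (limma adjusted p = 0.46 and 0.55), although MEP was above CMP in 7 of 8 mice for both. Against the mean of the other gates 0 mitochondrial genes were called in CMP and 0 in MEP, where 2.98% and 7.95% of all genes were called. Without Cxadr-ko mouse 3 limma called 2 in MEP, mt-Nd1 and mt-Cytb, with log2 differences of 0.18 and 0.16.

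When the reads of the copies were added to the genes they copy, an alternative chosen after the data were seen, mt-Co2, mt-Atp6 and mt-Co3 could be tested too. They were higher in GMP than in the mean of the other gates by 0.45, 0.44 and 0.46 and lower in LSK, with log2 differences of -0.50, -0.49 and -0.51, and GMP exceeded LSK by 0.71, 0.70 and 0.73 on the log2 scale. With them limma called 22 of 23 tested mitochondrial genes higher in GMP, and 17.8% of all genes. mt-Co2, mt-Atp6 and mt-Co3 themselves had only 0, 1 and 6 reads over all libraries, so these values are in effect those of the copies' rows. The likeness to those rows (log2 differences of GMP of 0.45 for Gm28661 and 0.44 for Gm10925) was therefore fixed in advance.

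In Cxadr-ko mice alone 12 of 19 tested mitochondrial genes were called higher in GMP (10.1% of all genes) and 11 lower in LSK (13.1%). In control mice alone 17 of 20 were called higher in GMP (14.3% of all genes) and 16 lower in LSK (17.6%). The GMP difference of mt-Nd6 was 0.46 ± 0.102 in Cxadr-ko and 0.80 ± 0.067 in control mice, that of mt-Te 0.34 in Cxadr-ko and 0.87 in control mice, and that of mt-Nd1 0.55 in Cxadr-ko and 0.71 in control mice. The difference between genotypes was tested by the interaction of genotype and gate, with 0 mitochondrial genes called and 0.0% of all genes. The smallest unadjusted p among the mitochondrial genes was that of mt-Nd6, 0.048 (limma adjusted p = 0.843), and 1082 genes in all had an unadjusted p under 0.05.

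The second comparison asked whether mitochondrial transcripts differed between Cxadr-ko and control mice within each gate. No mitochondrial gene was called by limma in any of the 4 gates or in the mean over gates. In LSK and CMP, the values of all tested mRNAs and rRNAs were higher in Cxadr-ko mice, except that mt-Nd6 in LSK turned to -0.02 without control mouse 1 and mt-Nd3 in CMP to -0.02 without Cxadr-ko mouse 2. The median log2 difference of the mRNAs was 0.27 in LSK and 0.28 in CMP. In GMP and MEP the medians were 0.10 and 0.11, and over the mean of gates 0.20, while the medians of all genes tested lay between -0.01 and 0.00. Leaving out control mouse 1 lowered each of these medians of the mRNAs, to -0.05 in GMP and 0.00 in MEP, to 0.16 in LSK and 0.20 in CMP, and to 0.09 in the mean over gates. Without Cxadr-ko mouse 4 they were -0.00098 in GMP, 0.01 in MEP, 0.17 in LSK and 0.12 in the mean. Over the whole table limma called 7 LSK genes (0.0433% of those tested), 4 CMP genes (0.0254%), 3 GMP genes (0.0192%), 4 MEP genes (0.0253%) and 4 genes in the mean over gates (0.0217%). An unadjusted p under 0.05 was reached by 3 of 19 mitochondrial genes in LSK (8.58% of all genes tested) and 8 of 19 in CMP (7.27%), by 0 of 20 in GMP (5.66%), by 0 of 19 in MEP (5.93%) and by 1 of 20 in the mean (7.93%). DESeq2 called 2 mitochondrial genes in CMP (mt-Nd1 and mt-Nd2), where it called 0.248% of all genes, and 0 in LSK (0.575%), GMP (0.077%) and MEP (0.145%). edgeR called 0 in each gate, and over all genes it called 0.0371% (LSK), 0.0254% (CMP), 0.0192% (GMP) and 0.0253% (MEP). A limma fit with a term for mouse 1 of each genotype, whose animal numbers stand apart from the rest in the labels, called the same 2 in CMP (0.0572% of all genes), and leaving both of these mice out gave 0 (0.0329%).

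CMP held the clearest separation of values. mt-Nd1, whose CMP values are given above, averaged 16661 ± 879 normalized counts in Cxadr-ko and 12892 ± 757 in control CMP (SD, n = 4 each), and the lowest Cxadr-ko library was above the highest control library. The log2 difference was 0.37 ± 0.059, with limma adjusted p = 0.19. mt-Nd2, also of complex I, had 5630, 6614, 6718 and 6329 in Cxadr-ko and 4364, 4938, 4941 and 5385 in control CMP, again without overlap, for 0.37 ± 0.078 (limma adjusted p = 0.50). mt-Cytb had 96799, 100749, 109823 and 107827 in Cxadr-ko and 71324, 87740, 92360 and 88323 in control CMP, without overlap and with mouse 1 lowest among the controls, for 0.29 ± 0.077 (limma adjusted p = 0.62). mt-Co1 had 26685, 27041, 30190 and 28683 in Cxadr-ko and 17616, 24479, 24621 and 24429 in control CMP, where control mouse 1 stood far below the other controls. Without that mouse the log2 difference in CMP was 0.33 for mt-Nd1, 0.21 for mt-Cytb and 0.20 for mt-Co1.

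The rRNAs gave the same picture in CMP. mt-Rnr1 had 10546, 9339, 9586 and 9890 in Cxadr-ko and 6455, 7871, 8402 and 8805 in control CMP, for 0.33 ± 0.089 (limma adjusted p = 0.62). mt-Rnr2 had 52484, 43937, 41560 and 43436 in Cxadr-ko and 32960, 39408, 36054 and 38105 in control CMP, for 0.31 ± 0.078 (limma adjusted p = 0.62). Both sets of 4 values were apart. Of the 9 tested mRNAs 4 were higher in every Cxadr-ko than in every control CMP library, as were both rRNAs, where 2.36% of all genes tested in CMP were higher and 2.07% lower in that way. The other complex I genes of CMP overlapped, with log2 differences from 0.04 for mt-Nd3 to 0.28 for mt-Nd4. The mature neutrophil list summed to 11251 to 110084 in Cxadr-ko and 1340 to 19567 in control CMP, and its part in these values was not tested.

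In LSK the mt-Nd1 values, also given above, averaged 11870 ± 1539 in Cxadr-ko and 9280 ± 717 in control mice, and the lowest Cxadr-ko value was below the highest control value. The log2 difference was 0.35 ± 0.092 (limma adjusted p = 0.42). mt-Nd2 had 0.32, mt-Rnr1 0.30, mt-Cytb 0.28, mt-Nd4 0.28 and mt-Co1 0.27, and the smallest mRNA value was that of mt-Nd6 with 0.15. Control mouse 1 was the lowest control library of LSK for mt-Nd1, mt-Cytb and mt-Rnr1, and 12.5% of its reads were immunoglobulin. Without it the LSK differences were 0.21 for mt-Cytb, 0.15 for mt-Co1, 0.03 for mt-Nd5 and 0.16 for mt-Rnr1, and the part of the immunoglobulin reads was not tested. The glutamine tRNA mt-Tq had 19.6, 15.3, 28.7 and 28.8 in Cxadr-ko and 32.9, 30.5, 34.2 and 31.9 in control LSK. It was the only tested mitochondrial gene lower in every Cxadr-ko than in every control library of a gate, where 2.34% of all genes tested in LSK were and 2.93% were higher in that way, and its log2 difference was -0.51 ± 0.275 (limma adjusted p = 0.64).

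In GMP and MEP no tested mitochondrial gene separated the genotypes, where 1.41% and 1.58% of all genes were higher, and 1.9% and 1.74% lower, in every Cxadr-ko library. mt-Cytb differed by 0.19 ± 0.181 in GMP (limma adjusted p = 0.91) and 0.16 in MEP, and mt-Co1 by 0.18 in GMP and 0.20 in MEP. Without control mouse 1 mt-Cytb differed by 0.01 in GMP and 0.03 in MEP. mt-Rnr1 and mt-Rnr2 differed by -0.01 and 0.00 in GMP. Lower values were those of mt-Nd3 (-0.23 in GMP, -0.28 ± 0.198 in MEP, limma adjusted p = 0.87 in MEP) and of mt-Nd6 (-0.22 ± 0.199 in GMP, limma adjusted p = 0.91). mt-Nd3 had 210, 298, 262 and 306 in Cxadr-ko and 302, 366, 385 and 225 in control GMP, which overlap. Of the tested tRNAs 1 of 9 in GMP and 1 of 8 in MEP had a positive log2 difference (Cxadr-ko over control, limma), against 4 of 8 in LSK and in CMP. Means of normalized counts need not have the same sign. In MEP both mt-Tq (33.0 and 26.4) and mt-Tm (27.2 and 26.2) had a higher mean in Cxadr-ko than in control mice. The largest tRNA difference was that of mt-Te in GMP, -0.54 ± 0.286 (limma adjusted p = 0.89).

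**Figure D4:**
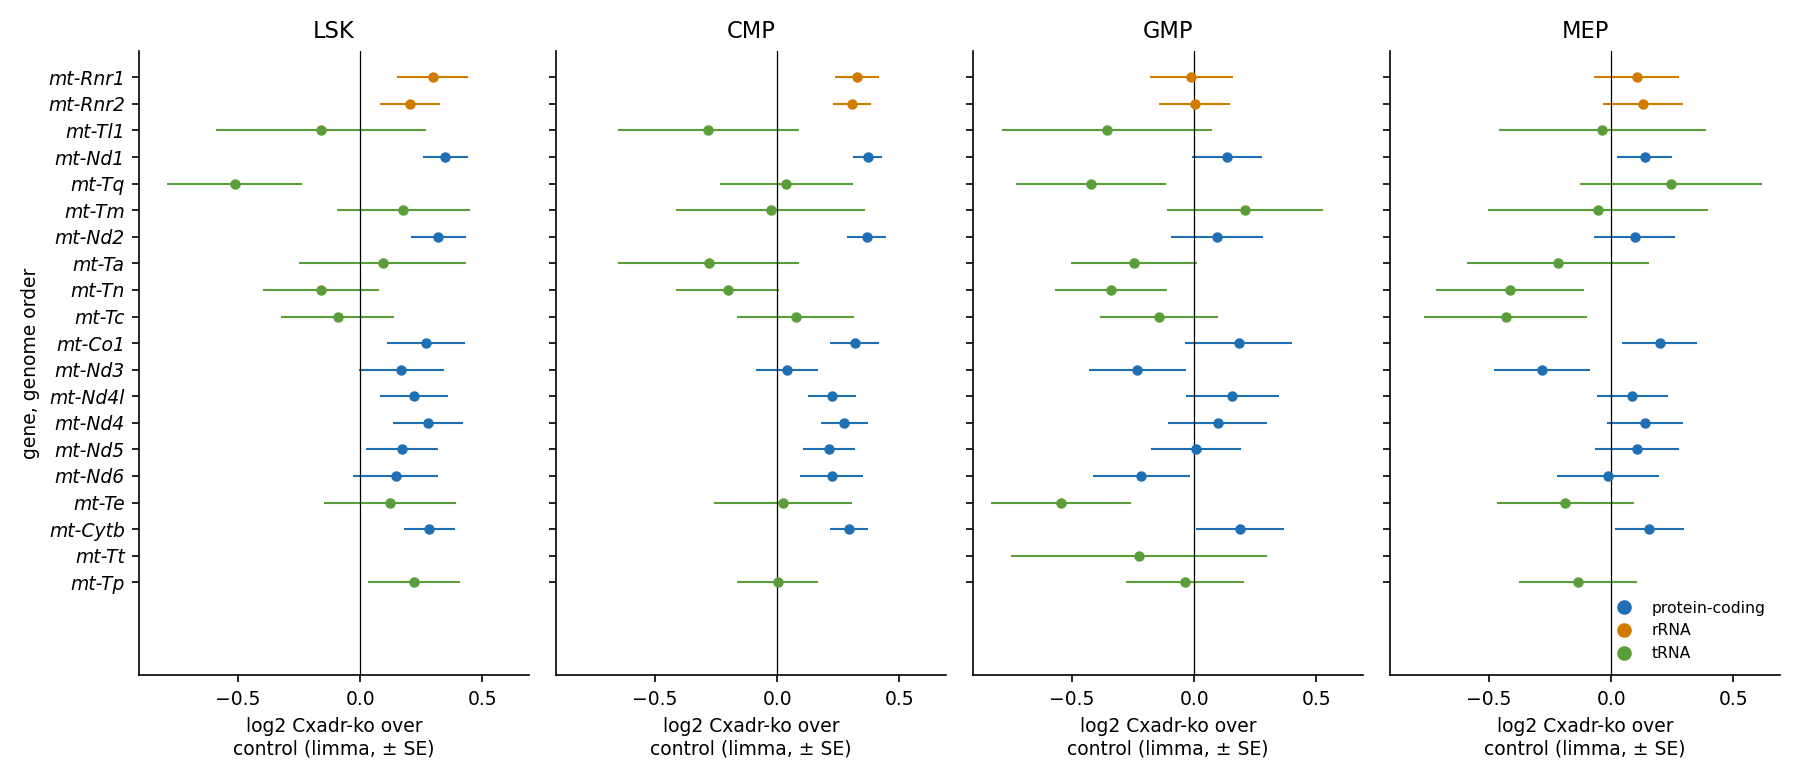
Log2 differences ± SE (limma) of Cxadr-ko over control for each tested mitochondrial gene in the 4 gates, 4 mice a genotype. Protein-coding (blue) and rRNA (orange) values are to the right of 0 in LSK and CMP with all 8 mice (mt-Nd6 in LSK and mt-Nd3 in CMP turn to -0.02 without 1 mouse), and tRNA values (green) fall on both sides. None passed the adjusted threshold.

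With copy reads added, mt-Co2, mt-Atp6 and mt-Co3 hold in effect the reads of their copies alone, having 0, 1 and 6 reads themselves. The values of these genes were higher in Cxadr-ko mice in each gate. Their log2 differences were 0.34, 0.34 and 0.32 in LSK and 0.43 ± 0.093, 0.35 and 0.42 in CMP, with 0.25, 0.19 and 0.26 in GMP and 0.26, 0.21 and 0.23 in MEP, and none was called (limma adjusted p = 0.51 for mt-Co2 in CMP). Gm28661, the copy of mt-Co2, had 24716, 24786, 27392 and 25568 in Cxadr-ko and 15142, 20833, 20318 and 20233 in control CMP, without overlap.

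As shares of all reads the mitochondrial mRNAs took 1.76% ± 0.116 in Cxadr-ko and 1.48% ± 0.162 in control CMP, and the ranges, 1.63% to 1.89% in Cxadr-ko and 1.24% to 1.60% in control mice, did not overlap. In LSK the shares were 1.39% ± 0.233 in Cxadr-ko and 1.16% ± 0.195 in control mice, in GMP 2.15% ± 0.408 in Cxadr-ko and 2.01% ± 0.460 in control mice, and in MEP 1.82% ± 0.292 in Cxadr-ko and 1.67% ± 0.267 in control mice, all with overlap (SD, n = 4 each). The rRNA share was 0.531% in Cxadr-ko and 0.442% in control CMP, but 0.629% in Cxadr-ko and 0.654% in control GMP. The tRNA share was 0.00442% in Cxadr-ko and 0.00466% in control CMP and 0.00581% in Cxadr-ko and 0.00694% in control GMP. Over all 37 genes the CMP shares were 2.23% to 2.38% in Cxadr-ko and 1.64% to 2.05% in control mice.

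**Figure D5:**
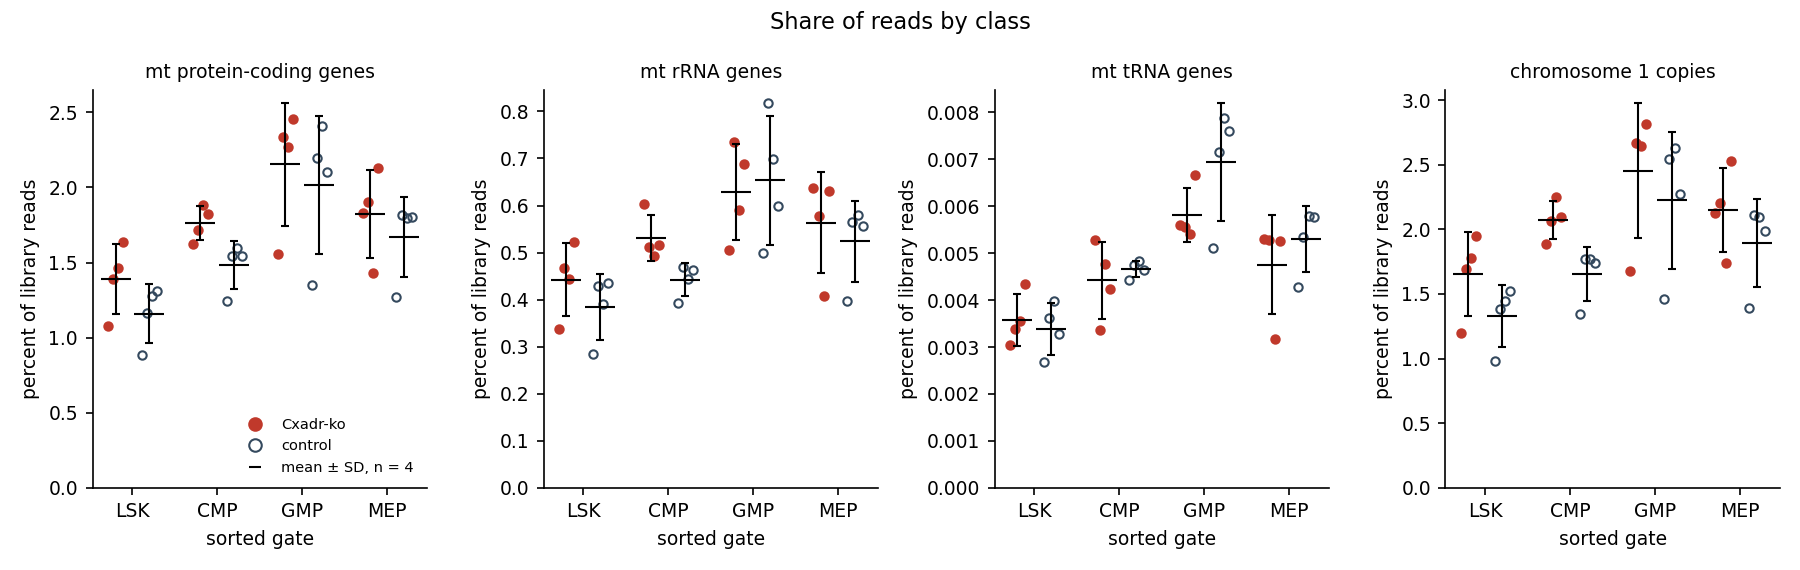
Percent of a library's reads on mitochondrial mRNA, rRNA and tRNA genes and on the chromosome 1 copies, by gate, with Cxadr-ko (filled) left of control (open) and the mean ± SD of 4 mice. In CMP the mRNA shares of Cxadr-ko mice (1.63% to 1.89%) are above those of control mice (1.24% to 1.60%), and GMP has the highest means in each panel.

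Within the mitochondrial transcripts a few proportions had ranges that did not overlap between genotypes, and these do not depend on the scaling between libraries. mt-Nd6 made up 1.34% ± 0.134 of mitochondrial mRNA reads in Cxadr-ko and 1.73% ± 0.232 in control GMP, with ranges of 1.17% to 1.47% in Cxadr-ko and 1.56% to 2.07% in control mice (SD, n = 4 each). Read against mt-Nd5, its neighbour on the other strand, the GMP ratios were 0.235 to 0.263 in Cxadr-ko and 0.268 to 0.326 in control mice, again without overlap. tRNA reads for each 1000 mitochondrial mRNA reads averaged 2.59 ± 0.310 in Cxadr-ko and 3.18 ± 0.182 in control MEP, with ranges of 2.21 to 2.90 in Cxadr-ko and 2.94 to 3.37 in control mice. That ratio averaged 2.52 in Cxadr-ko and 3.17 in control CMP, 2.77 in Cxadr-ko and 3.48 in control GMP, and 2.59 in Cxadr-ko and 2.94 in control LSK. mt-Nd1 took 9.50% ± 0.476 of mRNA reads in Cxadr-ko and 9.64% ± 0.815 in control GMP, above the 8.23% ± 0.231 in Cxadr-ko and 7.86% ± 0.502 in control LSK. Other proportions without overlap were the mt-Nd5 share in GMP (4.96% to 5.60% in Cxadr-ko and 5.69% to 6.36% in control mice) and chromosome 1 copy reads for each mRNA read in CMP (1.15 to 1.20 and 1.08 to 1.14). The ratio of mt-Nd4l to mt-Nd4 reads in LSK was another (0.118 to 0.125 and 0.127 to 0.130). These proportions were chosen among many and carry no test, and how often any proportion lacks overlap was not counted.

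The mitochondrial genes moved together from library to library. Across the 32 libraries the log2 value of each tested mRNA correlated with the mean of the other mRNAs at Pearson r from 0.793 (mt-Nd3) to 0.974, median 0.965, that of the rRNAs at 0.926 to 0.965, and that of the tRNAs from 0.140 (mt-Tt) to 0.780 (mt-Tp). After the mean of each gate and genotype was subtracted, r was 0.639 to 0.976 for mRNAs, up to 0.908 for rRNAs and -0.179 to 0.663 for tRNAs. These are descriptions over libraries that share mice, size factors and depth. Among 8353 nuclear protein-coding genes with a mean of at least 100, Cks2, a cofactor of cyclin-dependent kinases, came nearest to the mean mRNA pattern with r = 0.920, followed by Tent5a (0.890), Acox3 (0.859), Wdr83os (0.852) and Gadd45a (0.845). Plekha2 (-0.867) and Cfap20 (-0.834) ran most against it. With group means subtracted the nearest were Nrgn (0.808) and Cks2 (0.797), and Utp4, a nucleolar factor, was the most opposed (-0.842). After Utp4 came Lars (-0.787), Slc25a5 (-0.784), Sdhd of complex II (-0.784) and Ddx39 (-0.782).

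The nuclear genes that serve the mitochondrial genome are described by list. Of 77 tested mitochondrial ribosomal protein genes, 58 were called higher and 2 lower in GMP (median log2 difference 0.22, all genes -0.03), where 17.8% of all genes were called higher and 21.6% lower. In LSK 1 was called higher and 63 lower, where 25.8% of all genes were called higher and 20.9% lower. Mrpl33 averaged 2979 normalized counts in GMP, against 1247 in LSK, 2095 in CMP and 2199 in MEP (0.73, limma adjusted p = 7.2e-16), and Mrps21, Mrpl51 and Mrpl18 differed by 0.49, 0.56 and 0.36. Of 24 nuclear subunits that share complexes with the mitochondrial ones, 17 were higher and 0 lower in GMP (17.8% and 21.6% of all genes), and 15 were lower in LSK (20.9% of all genes). Those higher in GMP included the complex IV genes Cox7a2 (0.56), Cox7c (0.41), Cox4i1 (0.40) and Cox6a1 (0.39). Complex II, which has no mitochondrially encoded subunit, was split, with Sdhd (0.12) and Sdhc (0.13) higher and Sdha (-0.15) lower in GMP.

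Calls among the regulators went both ways, in shares near those of all genes for the first 2 lists (17.8% higher and 21.6% lower over all genes). Of 22 tested genes of mitochondrial transcription and DNA upkeep, 5 were higher and 4 lower in GMP, such as Lonp1, the matrix protease (0.34), Polg, the DNA polymerase (0.44) and Primpol, a primase-polymerase (-0.80, limma adjusted p = 1.2e-05). Of 29 genes of RNA processing, 6 were higher and 7 lower, with Slirp, which stabilises mitochondrial mRNAs, at 1460 normalized counts in GMP, against 761 in LSK, 1094 in CMP and 1130 in MEP (0.57, limma adjusted p = 5.9e-13), Elac2, which cuts the 3′ ends of tRNAs, at 0.46, and Angel2 at -0.32. Of 14 translation factors Mtif2 was higher (0.20) and Mrrf (-0.30) and Gfm2 (-0.23) lower. Of 11 regulators of mitochondrial biogenesis 1 was higher (Pprc1, 0.29) and 3 lower: Sirt3, a mitochondrial deacetylase (-0.46), Gabpb1, a subunit of nuclear respiratory factor 2 (-0.64), and Nrf1 (-0.19). Between genotypes 0 genes of these lists were called in any gate. In CMP the values were higher in Cxadr-ko mice for 20 of 24 partner subunits (median log2 0.08) and 58 of 77 ribosomal protein genes (median 0.05), and for 10 of 22 transcription and 13 of 29 processing genes. The lean of the first 2 of these lists was not particular to CMP. Partner subunits were higher for 20 of 24 in LSK (median 0.10), 18 in GMP and 16 in MEP. Ribosomal protein genes were higher for 51 of 77 in LSK, 55 in GMP and 54 in MEP. The share of all genes with a higher value was not counted. In CMP Uqcrfs1, the Rieske protein of complex III, and Cox6a1 had 0.23 and 0.18, and Ppargc1b, a coactivator of biogenesis, had -0.80 (limma adjusted p = 0.62 for all 3).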

How the data were processed

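RNA was extracted with TRIzol from cells of each gate and made into libraries with a low-input kit, per the labels' protocols. STAR and DESeq2 are named in the submitters' processing notes with GRCm38. The deposited values are signal in analysis terms: gene counts that the authors divided by 1 size factor per library, and the handling of reads with several matches is not stated in any label. All 765992 values above 0 were whole multiples of a library's step within 0.001, so the reads were recovered (8313300 to 13641248 a library). Sample columns left unused numbered 0.

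The trend form of limma 3.58.1 (R 4.3.3, two-sided) was run on log2(value + 1) for genes at 10 or more in at least 4 fitted libraries, with Benjamini-Hochberg adjustment over all genes tested and calls under 0.05. Fold changes on this scale understate the change of low genes. Genotype was fitted per gate, 4 against 4, and on each mouse's mean over gates. Gates were fitted over 32 libraries with mouse as a block, since the labels name the same animal, and deviations of 1 mouse in 2 gates correlated at 0.0192 to 0.307. edgeR 4.0.16 and DESeq2 1.42.0 on the recovered reads, other scalings, pseudocounts and filters, leaving out each mouse, and each genotype alone were alternatives. Levels between genes are per kilobase of gene span. Sequences are from GENCODE vM21 transcripts. Libraries of 1 group differed beyond counting noise in all 48 pairs, and intervals and floors cover counting error only. The members and gene lists were chosen with earlier results of these data known. Named tRNA genes are those that passed the filter. Named nuclear genes are those of lowest p in each list, up to 4 where genes were called and up to 2 where none was. The fits were tested on simulated data.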

Additional observations from a re-analysis of the deposited data

Results flagged for a closer look

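In 224 groups of 4 mice the gap of the highest or lowest library to the next was set against the group's range, and 26 exceeded Dixon's critical value. Chance flags about 1 group in 20. Control mouse 1 was the low library in most of them, and it is the same animal in each gate. mt-Nd5 stood apart in all 4 gates of that mouse, with 4789.56 normalized counts in LSK, where the next control library had 7027.54, 6652.96 in CMP (next 8802.88), 8413.89 in GMP (next 13532.4) and 6386.57 in MEP (next 9893.62). mt-Nd6 was low there in LSK (1181.98), CMP (1690.15) and MEP (1538.53), mt-Nd4 in CMP (10108.6) and MEP (9842.78), mt-Co1 in CMP (17616.0) and mt-Cytb in MEP (73724.6). The copies on chromosome 1 were low in the same mouse, with Gm28437 at 23846.1, Gm10925 at 77276.4 and Gm28661 at 15141.9 in CMP, and Gm29216 at 16906.1 in LSK and 20313.4 in MEP. Its share of reads on mitochondrial mRNAs was 1.24321% in CMP and 1.27064% in MEP, and on rRNAs 0.396469% in MEP. The cause was not tested. Without this mouse the median log2 difference of the tested mitochondrial mRNAs, Cxadr-ko over control, was -0.05 in GMP and 0.00 in MEP, and 0.16 in LSK and 0.20 in CMP.

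In Cxadr-ko mouse 1 mt-Nd1 (17171.6) and Gm10925 (99660.8) were low in GMP and mt-Tq was high there (60.7644). In Cxadr-ko mouse 3 mt-Rnr1 (7662.94) and the tRNA share (0.00316681%) were low in MEP, and Gm28438 was high in CMP (188.429). The tRNA share of Cxadr-ko mouse 4 was the high one in GMP, at 0.00667422%.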

How the results depend on the processing

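Depth limits the tRNA genes, most of which have under 100 reads a library, and 4 mice a genotype limit the genotype tests. Of 351 recomputed counts of called genes 342 stayed within 1.5 times the reported one, and of 2298 recomputed single-gene differences 2231 kept direction and side of the threshold. DESeq2 and a fit with a term for mouse 1 of each genotype called 2 genes in CMP between genotypes, against 0. In the 4 Cxadr-ko mice only, 12 genes were called in GMP (10.1% of all genes were called higher) and 11 in LSK (13.1% of all genes were called lower). Those mice gave 2 in GMP against CMP, 2 in GMP against MEP, 3 in CMP against LSK and 5 in MEP against LSK, for which no share over all genes is given here. Leaving out 1 mouse gave 0 to 2 calls in MEP, 18 to 19 in GMP, 17 to 18 in LSK and 0 in each genotype comparison. It gave the median genotype difference of the mRNAs 0.156 to 0.371 in LSK, 0.198 to 0.327 in CMP, -0.0528 to 0.257 in GMP, 0.00098 to 0.237 in MEP and 0.0917 to 0.287 in the mean over gates.

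Quantile normalization turned mt-Cytb to -0.248 in GMP, 0.260 in CMP, -0.0219 in GMP against LSK, -0.381 in GMP against CMP, -0.340 in GMP against MEP and -0.0403 in MEP against CMP. It gave mt-Nd1 0.00995 in CMP, and the Cxadr-ko mice only gave it 0.0338. The cause was not tested. Leaving out 1 mouse gave mt-Nd3 -0.0152 to 0.0886 between genotypes in CMP, and mt-Nd6 -0.0207 to 0.241 in LSK, -0.225 to 0.0782 in MEP and -0.134 to 0.102 in the mean over gates, where it was -0.0917 without mouse 1 of both genotypes.

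The same number in both genotypes is a different animal: their deviations correlated at -0.0473 to 0.498, and 1 to 2 of 4 Cxadr-ko mice per gate correlated best with the control of their number. With the number as a replicate block 0 genes were called in each genotype comparison. Without the mouse block the calls of mt-Cytb in GMP against MEP and of mt-Tm in LSK were lost.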
